A study of Homo sapiens with 6 samples.

Results

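Collagens, laminins and integrins are the matrix proteins that surround cells and the receptors that hold cells to them. They were read here from RNA of HCC-LM3 cells treated with apigenin or with DMSO. Members were all listed gene symbols of the form COL-number-A-number, LAMA, LAMB or LAMC with a digit, and ITGA or ITGB with a suffix, without the integrin-binding protein genes ITGB1BP1, ITGB1BP2 and ITGB3BP. That gave 74 of the 23059 listed genes, of which 37 were collagens, 12 laminins and 25 on the integrin side. ITGBL1 is counted among the 25 by its name, although its product is integrin-like and not a receptor subunit.

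HCC-LM3 is a liver cancer cell line of human origin, used as a model of metastasis. Apigenin is a plant flavone, and DMSO is the solvent used as its control. The apigenin group and the DMSO group held 3 cultures each of the same line, labelled as biological replicates, and neither the dose nor the time of treatment is stated in the labels. The study asked how apigenin changes transcription in these cells, under a title about microvesicles and angiogenesis. A single cell line in culture has no stroma, and p-values measure the spread between these cultures only.

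Fibrillar and basement membrane collagens assemble from chains that coil around each other, and laminins from an alpha, a beta and a gamma chain. Integrins are pairs of an alpha and a beta subunit. The alpha subunit largely sets the ligand, the beta-1 subunit joins with many alpha subunits, and the beta-4 subunit joins with alpha-6 in hemidesmosomes. In liver, hepatocytes rest on a sparse matrix, while carcinoma cells often show more laminin-binding integrin.

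The libraries held 33882145 to 37983636 counts, and 0 reads in 1 library allow up to 0.079 to 0.0885 CPM (3 counts, covering counting error only). Of the 10 listed hepatocyte and carcinoma markers, all 10 had a mean of 1 CPM or more, led by KRT8, with ALB at 52.9 CPM with apigenin and 123 CPM with DMSO. Of markers of other cells, PTPRC (leukocytes) had 27 reads, CDH5 (endothelium) 14 reads and PDGFRB (fibroblasts) 7 reads over all 6 libraries. The endothelial genes PECAM1 and KDR were not near 0, with PECAM1 at 44.3 CPM with apigenin and 51 CPM with DMSO and KDR at 46.3 CPM with apigenin and 55.7 CPM with DMSO. The summed fibroblast list of 10 genes was 33.4 to 34.9 CPM with apigenin and 27.6 to 29.5 CPM with DMSO, and LUM, a matrix proteoglycan gene, carried most of it. PECAM1 and KDR carried the summed endothelial list, which was 87.4 to 96.4 CPM with apigenin and 105 to 111 CPM with DMSO. The part of these marker lists in the members' changes was not tested. The leukocyte list was 86 to 95.5 CPM with apigenin and 87.6 to 95.1 CPM with DMSO, carried by CD68. The platelet list stayed at 0.405 CPM or less in each library. Across all genes, log2 fold changes were lower the longer the gene. The slope per doubling of length, against the DMSO mean, was -0.0707, -0.0211 and -0.147 in apigenin 1, 2 and 3 and between -0.0047 and 0.00323 in the DMSO libraries. Gene lengths were therefore kept beside each change, as the number of nucleotides by which the deposited FPKM were divided.

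Levels between genes are compared as FPKM, which is per length. Of the 74 members, 42 had a mean under 0.5 FPKM, and 19 had 5 FPKM or more, of which 11 were matrix chains and 8 integrins. ITGB1, the shared beta-1 subunit, was at 136 ± 13.2 FPKM with apigenin and 151 ± 1.29 FPKM with DMSO (SD, n = 3 each). COL6A1, a chain of the microfibril collagen VI, followed at 129 ± 6.05 FPKM with apigenin and 131 ± 1.98 FPKM with DMSO. Then came ITGA3, the alpha-3 subunit of a laminin receptor, at 83.1 ± 4.57 and ITGA6, the alpha-6 subunit, at 66.3 ± 6.1 FPKM with apigenin, against 91.9 ± 2.23 and 83.3 ± 2.16 FPKM with DMSO. Over the 6 libraries the ranges of ITGB1 and COL6A1 overlapped, as did those of ITGA3 and ITGA6, while within the DMSO libraries each of these pairs stood apart.

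**Figure D1:**
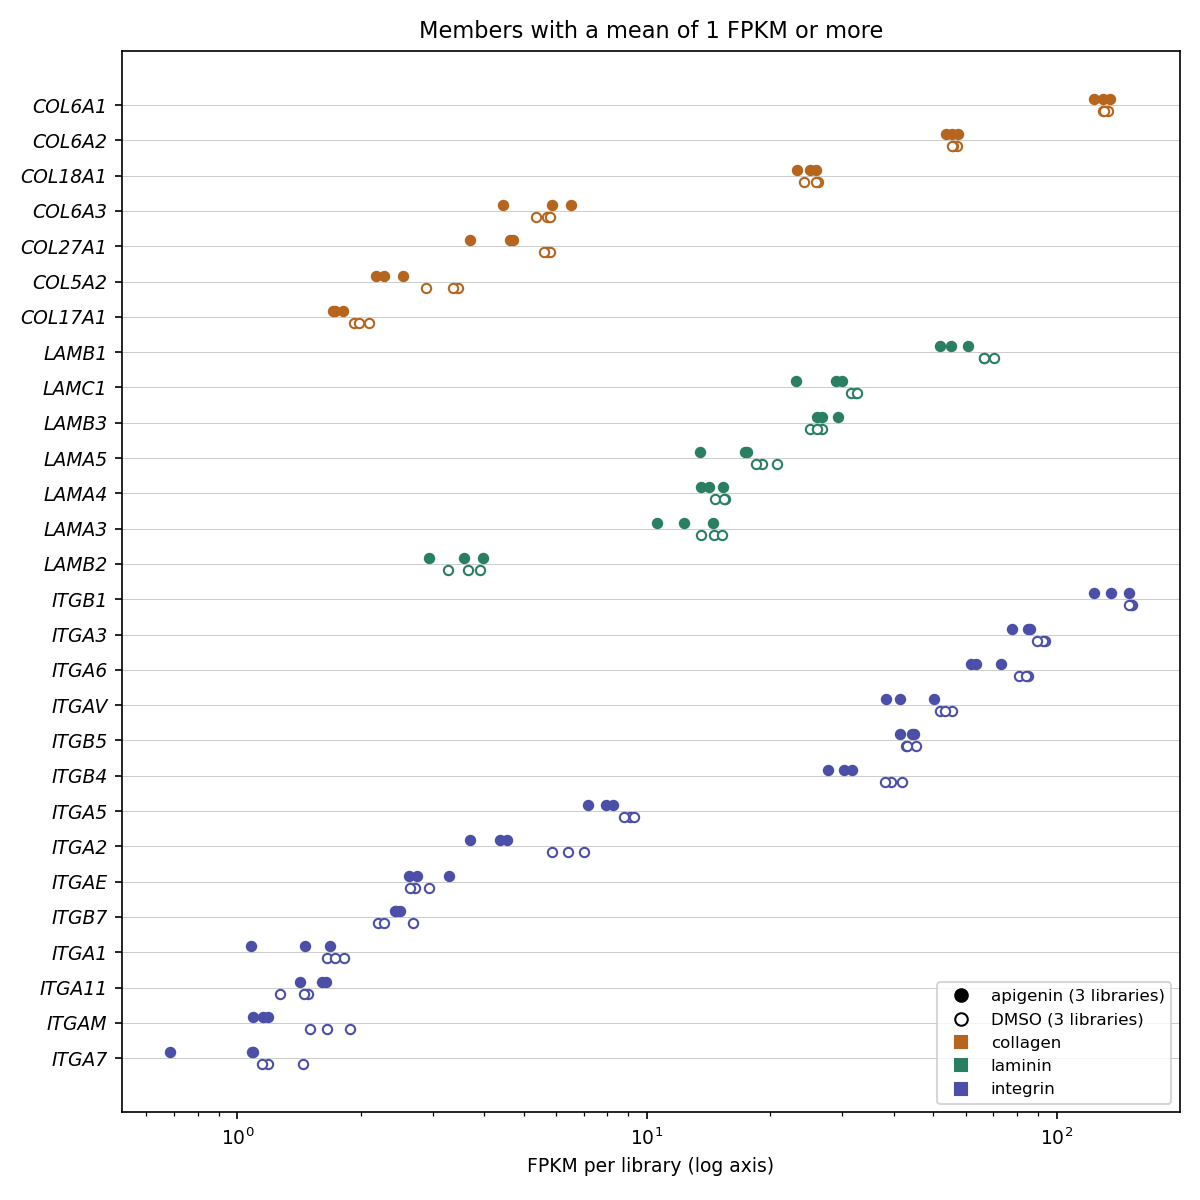
FPKM of reported members with a mean of 1 FPKM or more, 1 point per library on a log axis, coloured by class. Apigenin points are filled and above, DMSO points open and below. COL6A1 and ITGB1 stand near 130 to 150 FPKM, while COL17A1 lies between 1.71 and 2.1.

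Genes for chains of the same assembly had unequal RNA levels in FPKM, which rests on the deposited gene lengths and does not measure protein. COL6A1 was 2.33 ± 0.102 times COL6A2 in FPKM with apigenin and 2.34 ± 0.0649 times with DMSO, and it was 23.6 ± 3.92 times COL6A3 with apigenin and 23.4 ± 1.32 times with DMSO. ITGAV, the alpha-v subunit of receptors that read the RGD motif in fibronectin and vitronectin, was 1.0 ± 0.184 times ITGB5 with apigenin and 1.22 ± 0.0779 times with DMSO. Of its other partner subunits, ITGB6 averaged 0.476 and ITGB8 0.618 FPKM with apigenin, against 0.505 and 0.785 FPKM with DMSO. The type I collagen gene COL1A1 had 0.715 ± 0.35 CPM with apigenin and 0.663 ± 0.238 CPM with DMSO. COL1A2, its partner chain, had 0, 0 and 5 reads with apigenin and 1, 6 and 0 with DMSO.

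The type IV collagen genes COL4A1 and COL4A2 start head to head on chromosome 13, and their reads were far apart. COL4A2 had 173, 197 and 144 reads with apigenin and 116, 155 and 144 with DMSO. COL4A1 had 7, 12 and 1 reads with apigenin and 13, 0 and 1 with DMSO. The deposited length of COL4A1 was 15595 nucleotides, against 6446 for COL4A2. The low COL4A1 reads may depend on the gene model used for counting, which was not tested, so they are not read as its level. The windows that RefSeq (GRCh38.p14) gives around their starts, 250 bases before to 50 after, share 226 bases. The COL4A2 window, chr13:110307034-110307333 on the plus strand, is shown because both genes start in it, with the bases shared with the COL4A1 window in capitals.
COL4A2 promoter: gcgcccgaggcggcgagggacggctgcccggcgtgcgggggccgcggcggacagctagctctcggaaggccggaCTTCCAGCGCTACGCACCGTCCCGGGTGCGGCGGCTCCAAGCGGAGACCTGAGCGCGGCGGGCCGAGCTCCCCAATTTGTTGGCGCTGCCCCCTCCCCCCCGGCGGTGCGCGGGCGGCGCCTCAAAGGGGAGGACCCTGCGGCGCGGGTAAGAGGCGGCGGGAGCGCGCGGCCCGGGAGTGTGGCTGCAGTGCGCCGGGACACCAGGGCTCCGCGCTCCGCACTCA

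With apigenin, 8 members had less RNA, 5 of them integrins, and no member rose. The filter on low counts passed 51 of the 74 members, 31 matrix and 20 integrin genes. Over all 15173 genes tested with edgeR's quasi-likelihood test, 4.22% were lower and 2.76% higher with apigenin at an adjusted p under 0.05, together 6.99%. Among the tested integrins 5 of 20 fell and 15 did not pass. Among the tested matrix chains 3 of 31 fell and 28 did not pass, of which 2 of 21 collagens and 1 of 10 laminins fell. At an unadjusted p under 0.05, 1 tested member (COL4A4) was higher and 16 were lower. The share of all tested genes at that threshold is not given here, so these counts cannot be read against it. DESeq2 also called 0 members higher, beside 658 of all genes. The counts for integrins and matrix chains were set side by side without a test of their difference. The median log2 fold change was -0.30 for the integrins, -0.02 for the matrix chains and 0.00 for all tested genes (0.0039). The matrix median pools collagens at -0.01 and laminins at -0.07. In summed CPM (± SD), laminins had 1173 ± 101 with apigenin and 1347 ± 11.8 with DMSO. Integrins had 2234 ± 134 and 2615 ± 26.6, and collagens 1102 ± 38.1 and 1136 ± 9.88, in the same order. These sums follow the most abundant genes and were not tested. The log2 fold change was below 0 for 17 of the 20 integrins and 18 of the 31 matrix chains, against 49.2% of all tested genes. Among members with a mean of 5 CPM or more, it was below 0 for 12 of 15 integrins and 13 of 16 matrix chains. Of these, 5 integrins and 3 matrix chains fell, and the medians were -0.30 and -0.07. In CPM the apigenin libraries all lay below the DMSO libraries for 10 of the 20 integrins and 7 of the 31 matrix chains, against 15% of all tested genes, and above them for 0 integrins and 3 matrix chains, against 14.4%. In bulk samples, fewer cells of a kind and less RNA per cell cannot be told apart. CPM here scale each library to its counts in tested genes with TMM factors.

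**Figure D2:**
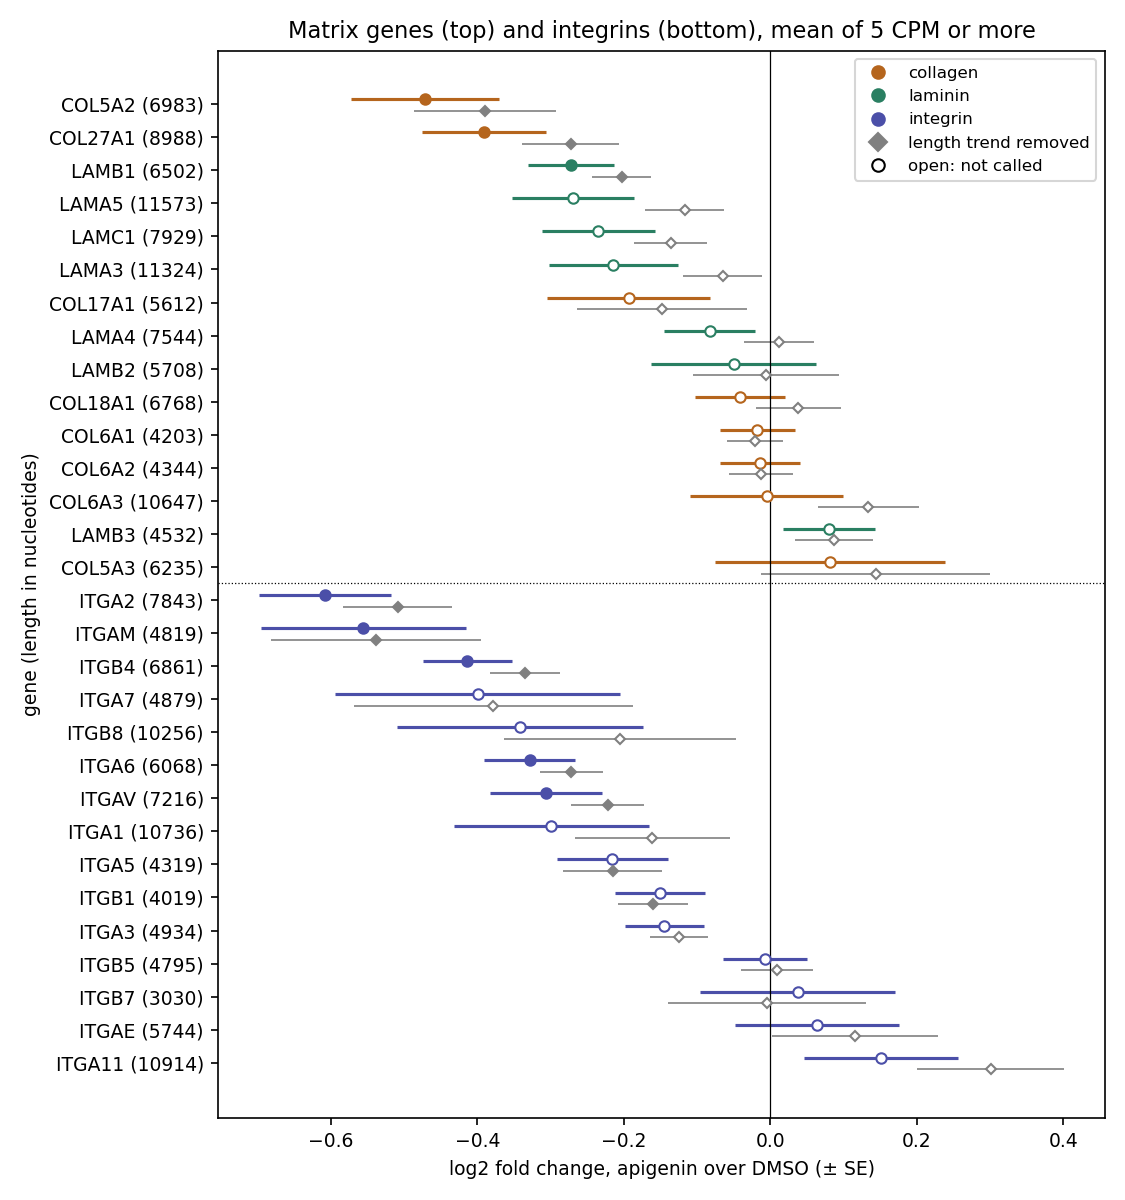
Log2 fold change of apigenin over DMSO ± SE for members with a mean of 5 CPM or more, matrix above and integrins below, with gene length in nucleotides beside each name and the estimate after removal of the length trend as grey diamonds. Filled symbols passed an adjusted p of 0.05. Of the 15 integrins 12 lie below 0 as fitted and 12 with the length trend removed. ITGB5 is below 0 only as fitted and ITGB7 only with the trend removed. The 1 laminin whose values are not reported is not drawn. Of the 16 matrix genes counted with it, 13 lie below 0 as fitted and 10 with the trend removed. The matrix estimates reach from -0.47 to 0.08 as fitted.

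Among collagen receptors, ITGA2 fell. ITGA2 (chromosome 5, 52989352 to 53094779; 7843 nucleotides) encodes the alpha-2 subunit that pairs with beta-1 to bind collagen. It had 35.7, 34.1 and 29.4 CPM in apigenin 1, 2 and 3 and 50.3, 45.8 and 55.1 CPM in DMSO 1, 2 and 3. The highest apigenin library stayed below the lowest DMSO library. The log2 fold change was -0.61 ± 0.090 (0.656-fold, edgeR adjusted p = 0.00155), and -0.51 with each library's length trend removed (adjusted p = 0.000145). The other collagen-binding alpha subunits did not pass. ITGA1, which overlaps PELO, stood at -0.30 ± 0.133, ITGA10 at -0.61 ± 0.296 and ITGA11 at 0.15 ± 0.105.

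Both subunits of the hemidesmosome receptor alpha-6 beta-4 fell. ITGB4 (chromosome 17, 75721459 to 75757818; 6861 nucleotides) had 217, 206 and 193 CPM with apigenin and 271, 286 and 262 CPM with DMSO, with no overlap. Its log2 fold change was -0.41 ± 0.061 (0.751-fold, edgeR adjusted p = 0.00139), and -0.33 with the length trend removed. It overlaps GALK1, and whether counting used strand is not stated. ITGA6 (chromosome 2, 172427336 to 172506459; 6068 nucleotides) had 386, 441 and 381 CPM with apigenin and 516, 489 and 512 CPM with DMSO. Its groups did not overlap, and apigenin 2 stood nearest to the DMSO libraries. The log2 fold change of ITGA6 was -0.33 ± 0.062 (0.796-fold, edgeR adjusted p = 0.00664), and -0.27 with the length trend removed. It lost its call without apigenin 1, DMSO 1 or DMSO 3, and its highest adjusted p under any setting was 0.113. With the length trend removed, ITGA6 kept its call whichever library was left out. Of the other subunits that read laminin, ITGA3 stood at -0.14 ± 0.054 (edgeR adjusted p = 0.115) and ITGA7, which overlaps BLOC1S1, at -0.40 ± 0.195 (adjusted p = 0.227). DST, which encodes a cytoskeletal linker with a hemidesmosome form, fell by 0.54 ± 0.103 on the log2 scale and by 0.29 with the length trend removed. At 33778 nucleotides it is far longer than any tested member, and it lost its call without apigenin 1, DMSO 1 or DMSO 3. DST kept its call in all such fits with the length trend removed. PLEC, like DST among the adaptor genes given below, did not pass as fitted (0.09 ± 0.066). With the length trend removed, PLEC (18343 nucleotides) was higher, at 0.30 (edgeR adjusted p = 1.7e-05).

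**Figure D3:**
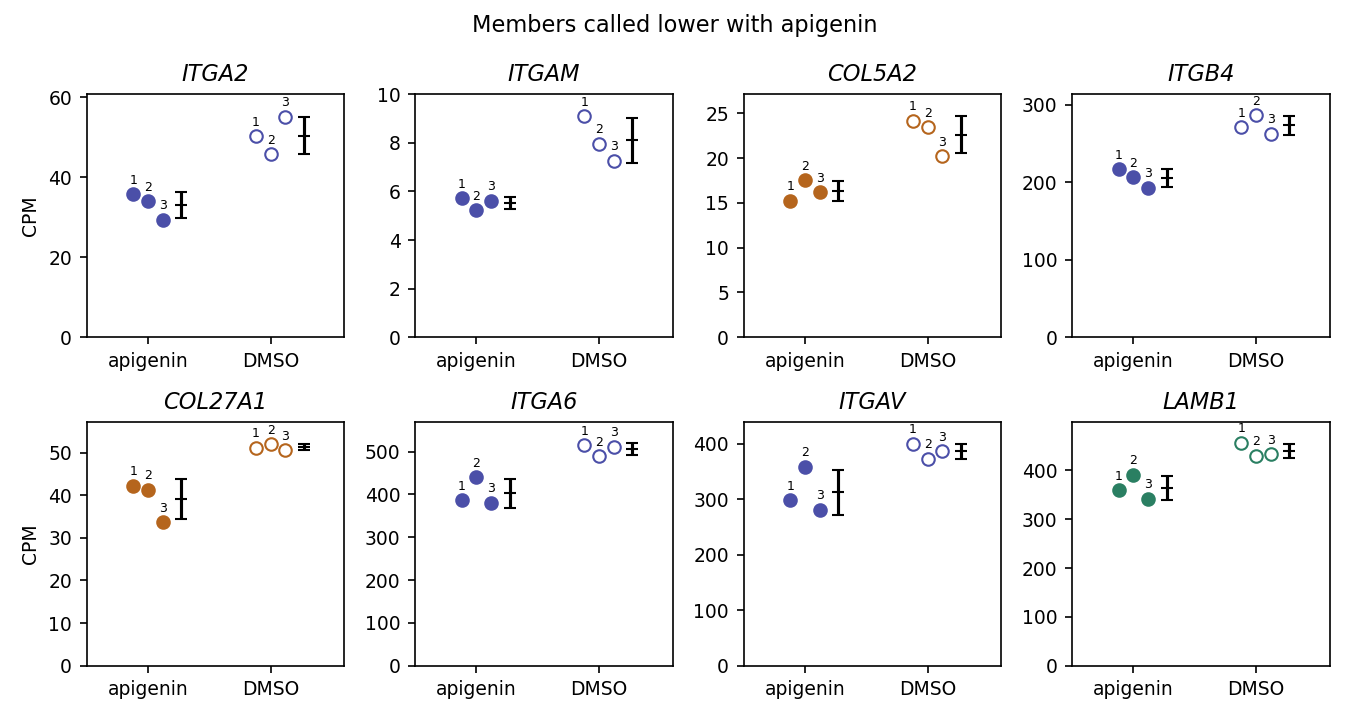
CPM in each library of the 8 members that passed the test, ordered by fold change, apigenin filled on the left and DMSO open on the right, with the replicate number beside each point and mean ± SD as bars. In every panel the 3 apigenin points lie below the 3 DMSO points, from 29.4 to 35.7 against 45.8 to 55.1 CPM for ITGA2 and from 342 to 391 against 430 to 456 CPM for LAMB1.

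Among receptors of the RGD motif ITGAV fell, and the shared beta-1 subunit did not pass. ITGAV (chromosome 2, 186590056 to 186680901; 7216 nucleotides) had 299, 358 and 281 CPM with apigenin and 400, 373 and 387 CPM with DMSO. Apigenin 2 was close to the lowest DMSO library. The log2 fold change was -0.31 ± 0.077 (0.809-fold, edgeR adjusted p = 0.0313), and -0.22 with the length trend removed (adjusted p = 0.00723). ITGAV lost its call without apigenin 1 or any DMSO library, with a highest adjusted p of 0.227. ITGB5, its partner at like level, stood at -0.01 ± 0.058, and at 0.01 with the length trend removed. ITGA5, the alpha subunit of the classical fibronectin receptor, stood at -0.22 ± 0.075 (adjusted p = 0.0967) and passed with the length trend removed (-0.21, adjusted p = 0.0497). ITGB1 had 544, 597 and 503 CPM with apigenin and 613, 608 and 604.5 CPM with DMSO. It stood at -0.15 ± 0.061 (adjusted p = 0.146) and passed with the length trend removed (-0.16, adjusted p = 0.0369). FN1, the gene of fibronectin itself, fell by 0.35 ± 0.063 on the log2 scale, with 7412 CPM with apigenin and 9438 CPM with DMSO, and lost its call without DMSO 1 (0.24 lower with the length trend removed).

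ITGAM was the 1 integrin of the leukocyte group that passed. ITGAM (chromosome 16, 31259975 to 31332877; 4819 nucleotides), known as CD11b in myeloid cells, had 5.72, 5.22 and 5.63 CPM with apigenin and 9.1, 7.97 and 7.27 CPM with DMSO. The groups did not overlap. Its log2 fold change was -0.56 ± 0.140 (0.68-fold, edgeR adjusted p = 0.0313), and -0.54 with the length trend removed. The call was lost without apigenin 1 or any DMSO library, with a highest adjusted p of 0.164. With the length trend removed, ITGAM was called in 3 of the 6 fits without 1 library. ITGB2, the beta subunit it pairs with in leukocytes, had 1.27, 1.25 and 0.714 CPM with apigenin and 1.59, 0.963 and 1.27 CPM with DMSO, and the leukocyte marker PTPRC was near 0 in both groups, at 27 reads in all. Of the rest of this group ITGAE, which overlaps HASPIN and P2RX5, stood at 0.06 ± 0.112, ITGB7, which overlaps ZNF740, at 0.04 ± 0.133 and ITGAX at -0.88 ± 0.441.

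Among laminins, LAMB1 fell, and the chains it assembles with did not pass. LAMB1 (chromosome 7, 107923799 to 108003161; 6502 nucleotides) encodes the beta-1 chain of laminin-511 and of other basement membrane laminins. It had 359, 391 and 342 CPM with apigenin and 456, 430 and 433 CPM with DMSO, with no overlap. The log2 fold change was -0.27 ± 0.059 (0.828-fold, edgeR adjusted p = 0.0155), and -0.20 with the length trend removed (adjusted p = 0.00269). The call was lost without apigenin 1 or any DMSO library, with a highest adjusted p of 0.131, and held in all 6 such fits with the length trend removed. LAMC1, the gamma-1 chain, stood at -0.23 ± 0.077 (adjusted p = 0.0803) and LAMA5, the alpha-5 chain, at -0.27 ± 0.084 (adjusted p = 0.0671). These long genes, of 7929 and 11573 nucleotides, stood at -0.14 and -0.12 with the length trend removed. With the replicate number as a block, LAMA5 and LAMC1 also passed, so that 3 laminins were lower. Both also passed with DESeq2 (adjusted p = 0.0202 for LAMA5 and 0.0325 for LAMC1), with no filter on low counts and without apigenin 2. LAMA5 passed without apigenin 3 as well. Neither passed in any fit with the length trend removed. LAMA3 and LAMB3, chains of epithelial laminins, did not pass, with LAMA3 at -0.21 ± 0.089 and LAMB3 at 0.08 ± 0.063. LAMA3, of 11324 nucleotides, stood at -0.06 with the length trend removed. LAMA4 stood at -0.08 ± 0.062 and LAMB2 at -0.05 ± 0.113, while the low LAMA2 and LAMB4, under 1.3 CPM in each library, stood at 0.77 ± 0.404 and 0.47 ± 0.50.

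Start windows of 3 called members are shown, 1 for each of a collagen receptor, a laminin receptor and a laminin chain. They come from RefSeq (GRCh38.p14), run from 250 bases before to 50 after the start nearest to a principal transcript, and are on the strand of the gene, at chr5:52989102-52989401 (plus) for ITGA2, chr2:172427336-172427635 (plus) for ITGA6 and chr7:108003112-108003411 (minus) for LAMB1. Capitals mark GGGCGG, the GC box read by SP1, on either strand.
ITGA2 promoter: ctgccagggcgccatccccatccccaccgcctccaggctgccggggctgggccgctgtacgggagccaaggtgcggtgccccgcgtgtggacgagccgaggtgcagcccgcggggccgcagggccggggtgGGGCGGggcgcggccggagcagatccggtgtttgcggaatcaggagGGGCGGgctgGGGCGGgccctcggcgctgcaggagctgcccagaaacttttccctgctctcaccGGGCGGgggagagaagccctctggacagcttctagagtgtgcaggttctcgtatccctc
ITGA6 promoter: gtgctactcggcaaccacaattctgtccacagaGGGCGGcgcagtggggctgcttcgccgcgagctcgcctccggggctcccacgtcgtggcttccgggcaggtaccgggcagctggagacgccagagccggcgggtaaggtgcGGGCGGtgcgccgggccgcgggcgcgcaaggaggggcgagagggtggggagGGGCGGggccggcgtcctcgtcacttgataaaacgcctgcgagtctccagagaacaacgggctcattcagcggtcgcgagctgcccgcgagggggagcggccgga
LAMB1 promoter: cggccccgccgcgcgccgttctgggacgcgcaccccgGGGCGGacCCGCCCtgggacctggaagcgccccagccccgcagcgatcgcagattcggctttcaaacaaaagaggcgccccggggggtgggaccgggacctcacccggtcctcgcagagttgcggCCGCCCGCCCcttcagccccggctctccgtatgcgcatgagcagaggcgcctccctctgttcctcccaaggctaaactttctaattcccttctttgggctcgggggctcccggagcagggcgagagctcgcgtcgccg

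The GC box occurred 4 times in the ITGA2 window, 3 times in that of ITGA6 and 4 times in that of LAMB1, where 2 of the copies overlap by 2 bases. Of all 35116 windows of the same length, 45% held at least 1, and of the 72 windows of the 53 members with an entry, 56.9%. The letters GCGTG, the core read by the aryl hydrocarbon receptor, were found on either strand 1 time in the ITGA2 window and 0 times in those of ITGA6 and LAMB1, against 36.5% of all windows and 33.3% of the members' windows. TGANTCA, the AP-1 site, occurred in 0 of the 3 windows, against 7.71% of all windows and 5.56% of the members' windows, and TATAAA also in 0 of the 3, against 11.5% and 13.9%. These matches describe the letters of the windows only.

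Of the collagens, COL5A2 and COL27A1 fell, and the abundant collagen VI and XVIII genes did not pass. COL5A2 (chromosome 2, 189031898 to 189441111; 6983 nucleotides) encodes a chain of the fibril-nucleating collagen V. It had 15.2, 17.5 and 16.2 CPM with apigenin and 24.2, 23.4 and 20.2 CPM with DMSO. Its log2 fold change was -0.47 ± 0.101 (0.722-fold, edgeR adjusted p = 0.0146), and -0.39 with the length trend removed. COL27A1 (chromosome 9, 114154098 to 114312511; 8988 nucleotides), a fibrillar collagen gene known from cartilage, had 42.3, 41.3 and 33.7 CPM with apigenin and 51.2, 52.1 and 50.6 CPM with DMSO. Its log2 fold change was -0.39 ± 0.085 (0.763-fold, edgeR adjusted p = 0.0154), and -0.27 with the length trend removed. The groups overlapped in neither gene. COL5A2 lost its call without apigenin 1, DMSO 1 or DMSO 2, and COL27A1 without any of the DMSO libraries (highest adjusted p of 0.151 for COL5A2 and 0.164 for COL27A1). With the length trend removed, COL5A2 was called in 3 and COL27A1 in 4 of the 6 fits without 1 library.

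COL6A1, COL6A2 and COL6A3 stood at -0.02 ± 0.051, -0.01 ± 0.054 and 0.00 (-0.0050) ± 0.104. COL6A3, the long chain of 10647 nucleotides, had 62.2, 68.7 and 47.9 CPM with apigenin and 60.6, 56.9 and 62 CPM with DMSO, so that apigenin 3 was the low library. With the length trend removed and without apigenin 3, COL6A3 was called higher (0.22, edgeR adjusted p = 0.0162). That was its 1 call under 24 other settings. COL18A1, whose protein is cut to give endostatin and which overlaps SLC19A1, stood at -0.04 ± 0.061, and COL17A1, the transmembrane collagen of hemidesmosomes, at -0.19 ± 0.111 (adjusted p = 0.311). COL4A2 stood at 0.35 ± 0.182 and COL24A1 at -0.61 ± 0.197 (adjusted p = 0.0748). The other 12 tested collagens did not pass. They included COL5A3 at 0.08 ± 0.157 and COL4A4, which overlaps RHBDD1, at 1.32 ± 0.546 from 0.268 CPM with DMSO.

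The 23 members that did not pass the filter had 61 reads or fewer over all 6 libraries. They were 16 collagens, 2 laminins (LAMA1 and LAMC3) and 5 integrin-side genes (ITGA2B, ITGA8, ITGAD, ITGAL and ITGBL1). COL8A2, a network collagen gene, had 24, 11 and 9 reads with apigenin and 1, 0 and 4 with DMSO, and was named after its values were seen. Without the filter its log2 fold change was 3.08 ± 1.09 (edgeR adjusted p = 0.0527), and without apigenin 3, when it passed the filter, it was called higher (adjusted p = 0.0402). Without DMSO 3 it was also called once the length trend was removed (adjusted p = 0.0473), and it was not called without DMSO 1 or DMSO 2. COL8A1 had 1, 5 and 7 reads with apigenin and 0 in each DMSO library.

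Tested members were long, with a median of 6301 nucleotides against 3872 for all tested genes, and 41 of the 51 had 4713 or more. When all tested genes were split by length into 5 groups of like size, the share called lower was 0.494%, 1.32%, 2.77%, 5.57% and 11% from short to long. Genes of 4713 to 7091 nucleotides made up the group at 5.57%, and genes of 7092 or more that at 11%. In the group at 5.57% 3 of 10 integrins and 2 of 11 matrix chains fell, and in the group at 11% 2 of 5 integrins (ITGA2 and ITGAV) and 1 of 15 matrix chains (COL27A1). The matrix chains were the longer side, with a median of 6983 nucleotides against 5286.5 for the integrins. Set against the median of their own length group, the integrins stood lower by a median of 0.22 (-0.22) on the log2 scale and the matrix chains at 0.01.

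**Figure D4:**
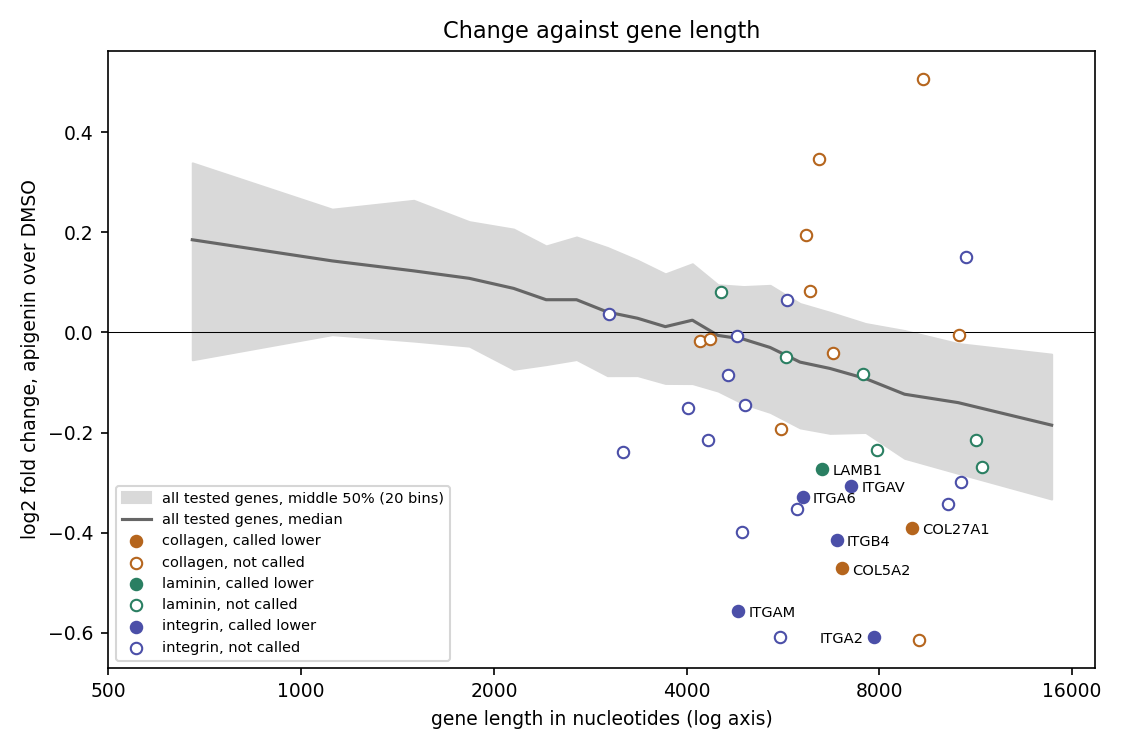
Log2 fold change of apigenin over DMSO against gene length on a log axis for reported members with a mean of 1 CPM or more. Symbols are filled where the test was passed. The grey line and band give the median and middle 50% of all tested genes in 20 bins by length. The 8 called members lie below the band, between 4819 and 8988 nucleotides.

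With each library's length trend removed, 5.46% of all tested genes were lower and 4.51% higher. Then 7 of 20 integrins and 3 of 31 matrix chains fell and 0 members rose. The median was -0.22 for the integrins and 0.02 for the matrix chains, at 0.04 for collagens and 0.00 (0.0031) for laminins. All 8 called members kept their call, and ITGA5 and ITGB1 were added. Over libraries, the median of the integrins against the DMSO mean was -0.22, -0.12 and -0.38 in apigenin 1, 2 and 3, and -0.19, -0.10 and -0.29 with the trend removed. That of the matrix chains was 0.02, 0.00 (-0.0030) and -0.12, and 0.03, 0.02 and 0.00 (-0.0049) with the trend removed. So each apigenin library showed the lower integrin median, and apigenin 2, with the slope nearest to the DMSO libraries, showed it least. The part of the length trend in the changes of single members was not tested beyond these values.

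**Figure D5:**
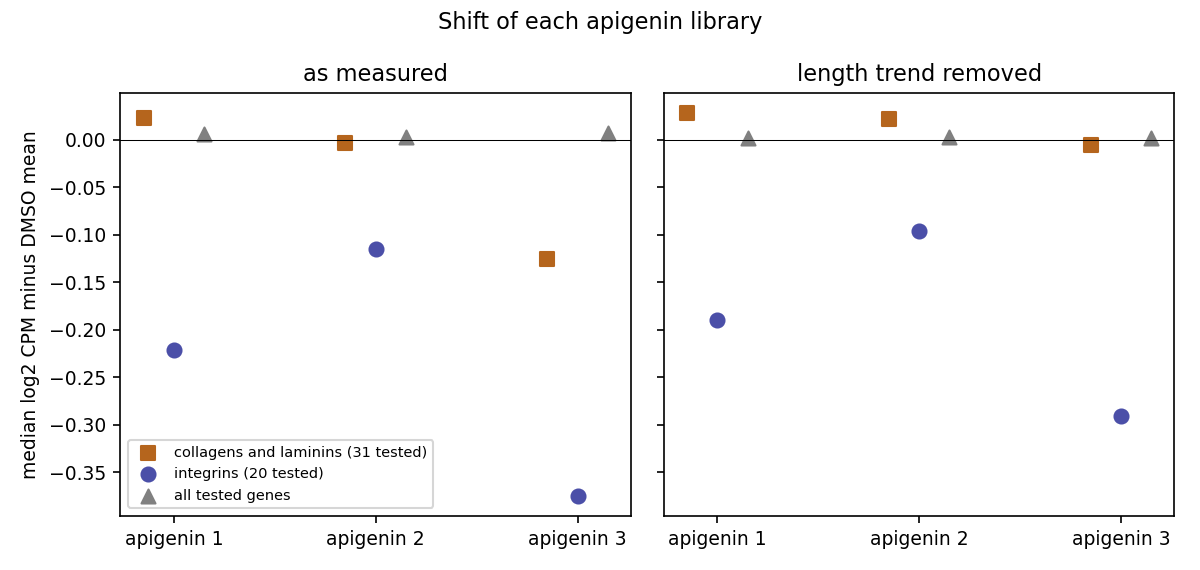
Median difference in log2 CPM from the DMSO mean in each apigenin library for collagens and laminins (squares), integrins (circles) and all tested genes (triangles), as measured on the left and with the length trend removed on the right. The integrin median lies between -0.38 and -0.12 on the left and between -0.29 and -0.10 on the right.

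The genes that build, anchor and read the matrix around these members are given next by list, with a median log2 fold change beside that of 0.00 (0.0039) for all tested genes, and counts beside the 4.22% of all tested genes called lower and 2.76% called higher (5.46% and 4.51% with the length trend removed). Each gene named as risen or fallen had an edgeR adjusted p between 0.0011 and 0.0473. Of 22 tested collagen-modifying and chaperone genes, 0 passed in either direction (median -0.03). The smallest p was that of PLOD2, a collagen lysyl hydroxylase gene, at -0.20 ± 0.059 (adjusted p = 0.0523). After that trend was removed, 2 of the 22 were lower by edgeR, PLOD2 at -0.22 (adjusted p = 0.0065) and LOXL1, a lysyl oxidase family gene, at -0.40 (adjusted p = 0.0345). Of 29 tested other matrix genes, 6 fell and 2 rose (median -0.11), and 9 were lower and 2 higher with the length trend removed (median -0.10). HSPG2, which encodes the basement membrane proteoglycan perlecan, fell by 0.59 ± 0.092 on the log2 scale. NID1, which encodes a linker of laminin and collagen IV, fell by 0.33 ± 0.080, and VCAN, a proteoglycan gene, fell by 0.86 ± 0.185. CCN2, a matricellular integrin ligand gene, fell by 0.55 ± 0.078. NTN4, which encodes a laminin-related protein that binds the gamma-1 chain, rose by 0.36 ± 0.059. With the length trend removed, HSPG2 (15109 nucleotides) stood at -0.41, NID1 at -0.28, VCAN at -0.71, CCN2 at -0.62 and NTN4 at 0.35, and each passed. VCAN and NID1 lost their call without apigenin 1 or any DMSO library, whereas HSPG2, CCN2 and NTN4 kept theirs. With the length trend removed, each of these genes kept its call whichever library was left out.

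Of 16 tested non-integrin matrix receptors, 2 fell and 0 rose (median -0.05), and 4 were lower and 0 higher with the length trend removed (median -0.06). CD44, the hyaluronan receptor, fell by 0.35 ± 0.052 and passed under all 24 other settings. DAG1, which encodes the laminin receptor dystroglycan, fell by 0.27 ± 0.073 and lost its call without apigenin 1 or any DMSO library. With the length trend removed, CD44 (7057 nucleotides) stood at -0.26 and DAG1 (6593) at -0.20, and each passed. DAG1 was then called in 3 of the 6 fits without 1 library. Of 40 tested adaptor genes of integrin tails, 6 fell and 1 rose (median -0.08). After removal of the length trend 6 were lower and 5 higher, and the median turned to 0.03. The tensin gene TNS2 fell by 0.65 ± 0.116 and kept its call whichever library was left out. FERMT1, a kindlin gene, fell by 0.30 ± 0.076, the vinculin gene VCL fell by 0.30 ± 0.084 and the kinase gene PTK2B fell by 0.29 ± 0.075. BCAR1, which encodes an adhesion docking protein, rose by 0.24 ± 0.059. FERMT1, VCL, PTK2B and BCAR1 each lost their call without apigenin 1 or any DMSO library. With the length trend removed, TNS2 (6752 nucleotides) stood at -0.58, FERMT1 (5219) at -0.27 and VCL (6691) at -0.23. PTK2B (5114) then stood at -0.26 and BCAR1 (5690) at 0.28, and each of these genes passed. Of the 6 fits without 1 library and with the trend removed, TNS2 and BCAR1 were called in all. VCL was called in 4, PTK2B in 3 and FERMT1 in 2. Of the 3 tested latent TGF-beta genes, some of whose products alpha-v integrins can release, TGFB1 fell by 0.37 ± 0.071 and 2 did not pass. TGFB1 lost its call without apigenin 1, DMSO 2 or DMSO 3. With the length trend removed, TGFB1 (2783 nucleotides) stood at -0.42 and kept its call whichever library was left out.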

How the data were processed

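Per the labels' protocols, RNA was isolated in TRIzol and libraries followed the VAHTS Universal V6 kit. The submitters' processing notes name fastp, HISAT2, HTSeq and GRCh38 (hg38), without versions, and the strand setting is not stated. The authors deposited raw read counts per gene symbol and FPKM for each sample, grouped here by title. The deposited FPKM equalled count divided by a fixed length and by library total in 100% of genes (tolerance 0.0001), which gave the lengths. Counts were fitted with edgeR 4.0.16 (R 4.3.3; TMM, default filter, quasi-likelihood test, Benjamini-Hochberg adjustment over 15173 genes at 0.05). The SE is the log2 fold change over the root of F. The length trend of each library was a lowess curve (span 0.3) used as an offset. Other settings used DESeq2 1.42.0 on counts and limma 3.58.1 on log2(FPKM + 1) or log2(FPKM + 0.1). Of the fits that left out a library with the length trend removed, that without apigenin 3 was planned and the other 5 were added after seeing the data. Positions came from RefSeq, where all 74 members matched; 53 had a promoter window. The values of 1 laminin are not reported here, though counts and medians over groups include it. Named were called members, the 4 highest by FPKM in each class, chosen partner chains and up to 6 called genes of each list. Other members given with values, such as COL8A2, were chosen after their values were seen. Members, lists and settings were chosen with earlier results of these data known. Libraries of the same group were further apart than counting alone gives, with chi-square per degree of freedom of 8.81 to 27.5 between apigenin libraries and 4.35 to 5.15 between DMSO libraries.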

Additional observations from a re-analysis of the deposited data

How the results depend on the processing

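With DESeq2, 909 genes were lower, 658 higher and 3 laminins lower. With no filter on low counts, 1096 genes were lower, 865 higher and 4 laminins lower. With the length trend removed, 685 genes were higher. With limma on log2(FPKM + 1), 303 genes, 0 collagens and 3 integrins were lower, and the matrix median minus the integrin median was 0.129, against 0.285 as fitted. With log2(FPKM + 0.1) these were 289, 0, 3 and 0.196. With log2(FPKM + 1) and no filter, 60 genes were lower and 78 higher, 0 collagens, 0 laminins and 0 integrins were lower, the integrin median was -0.150 and the difference 0.133.

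Same-numbered libraries did not deviate together over all tested genes (correlations of -0.0482 to -0.0173). This cannot show whether cultures of the same number were handled together, which the labels do not state. With a replicate block, 776 genes and 3 laminins were lower and 455 genes higher. With the replicate block and the length trend removed, 923 were lower and 801 higher.

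Without 1 library at a time, 157 to 1546 genes were lower and 103 to 1344 higher, the extremes being without DMSO 1 and without apigenin 2. Without apigenin 1 or any DMSO library, 157 to 184 genes were lower, against 641 as fitted, so calls were lost over all genes in these fits. The members called lower were 0 to 3 collagens, 0 to 4 laminins and 2 to 9 integrins, and 0 to 1 collagens were called higher. The difference of the medians was 0.179 to 0.330 and the matrix median -0.115 to -0.022. With the length trend removed as well, 389 to 994 genes were lower (415 without DMSO 3) and 311 to 966 higher (637 without apigenin 3), with 0 to 2 collagens, 1 laminin and 3 to 7 integrins lower and 0 to 2 collagens higher. The difference of the medians was then 0.179 to 0.295 (0.186 without apigenin 3). ITGA2 and ITGB4 were called in 23 of 24 other settings, failing with limma and no filter.

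Among the 26 named members, signs turned for 9 that were not called and for 0 that were called. With the length trend removed, COL18A1 stood at 0.0385, COL6A3 at 0.1341, ITGB5 at 0.0099 and ITGB7 at -0.0049, and with the replicate block as well at 0.0354, 0.1297, 0.0084 and -0.0013. Without 1 library at a time the log2 fold change of COL1A1 was -0.2648 to 0.4393, COL18A1 -0.0752 to 0.0055, COL6A1 -0.0507 to 0.0091, COL6A2 -0.0393 to 0.0159 and COL6A3 -0.1214 to 0.1303. That of ITGB5 was -0.0301 to 0.0335, ITGB6 -0.2577 to 0.0805 and ITGB7 -0.0175 to 0.1274.

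With the length trend removed and 1 library left out, these values had turned. Without apigenin 1, COL18A1 stood at 0.0111, COL1A1 at -0.1905, COL6A3 at 0.1039 and ITGB7 at -0.0007. Without apigenin 2, COL18A1 stood at 0.1157, COL6A2 at 0.0256, COL6A3 at 0.0779, ITGB5 at 0.0627 and ITGB7 at -0.0040. Without apigenin 3, COL6A3 stood at 0.2167 and was called higher (edgeR adjusted p = 0.0162), while ITGB6 stood at 0.0788 and ITGB7 at -0.0096. Without DMSO 1, COL18A1 stood at 0.0578, COL6A2 at 0.0020, COL6A3 at 0.1410, ITGB6 at 0.0017 and ITGB7 at -0.0584. Without DMSO 2, COL18A1 stood at 0.0543, COL6A3 at 0.1051, ITGB5 at 0.0354 and ITGB8 at 0.0012. Without DMSO 3, COL18A1 stood at 0.0033, COL1A1 at -0.0681, COL6A3 at 0.1588, ITGB5 at 0.0022 and ITGB7 at -0.0360. Of 616 values of the 26 named members, 502 kept direction and side of the threshold, 47 lost the call, 21 gained it and 46 turned in sign. The causes were not tested. Members under about 1 CPM rest on few reads, which limits what differences could be detected.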
